A study of Mus musculus with 15 samples.

Results

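The ERK feedback and ETS target set comprised 10 genes, *Etv4*, *Etv5*, *Spry1*, *Spry2*, *Spry4*, *Dusp4*, *Dusp5*, *Dusp6*, *Spred1* and *Spred2*, taken by symbol from the 54390 genes listed in each count table. Of these, 9 had enough reads to enter the 14237 genes tested, and *Spry4* was listed at 0 in all 15 libraries. The members were chosen by symbol, with the differences between Trem2-/- and WT libraries of this study already known. These differences are therefore given for these genes as a description, with standard errors and intervals but without p-values, and a count of genes past the threshold is set beside the share of all tested genes that passed it.

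RNA sequencing was performed on BV2 cells, a mouse microglial line immortalised with a retrovirus carrying oncogenes. The line was WT or Trem2-/- (labelled Trem2KO), in which *Trem2*, a lipid-sensing receptor of myeloid cells, had been targeted with CRISPR–Cas9. Foamy cells had been loaded overnight with 20 μg/ml of soluble cholesterol, and non-foamy cells had been kept in medium without it. This gave 4 libraries of WT non-foamy, 4 of WT foamy, 3 of Trem2-/- non-foamy and 4 of Trem2-/- foamy cells. The soluble cholesterol was prepared with methyl-beta-cyclodextrin, and the non-foamy cells had medium alone. Effects of cholesterol and of this carrier therefore cannot be told apart. The Cas9 BV2 line had been grown from 1 clone and Trem2-/- cells were again isolated by limiting dilution, so the effect of *Trem2* and a difference between cell clones cannot be told apart. No label names separate cultures, so the p-values measure the spread between these libraries, which may be technical.

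The ERK cascade passes signals from receptors at the cell surface through Ras to the kinases MEK and ERK. Active ERK switches on its own inhibitors. Sprouty and Spred proteins act upstream, at the level of Ras, and dual-specificity phosphatases such as DUSP6 remove the phosphates from ERK itself, while the ETS factors ETV4 and ETV5 carry the signal on to transcription. In microglia and other macrophages the pathway lies downstream of the CSF1 receptor, on which such cells in the body depend for growth and survival. What drives the pathway in the BV2 line, which was immortalised with oncogenes, was not tested.

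The libraries held 23538963 to 41683825 counted reads. *Trem2* transcript was still counted in Trem2-/- cells, at 222 ± 8.79 CPM (read counts scaled to library size; mean ± SD, n = 3) without cholesterol, against 354 ± 41.2 (n = 4) in WT, and every Trem2-/- library was below every WT library. RNA counts do not measure the protein. The paper reports by flow cytometry that the Trem2 protein was knocked out in its cholesterol-treated Trem2-/- BV2 cells. Of 14 macrophage and microglia markers, 10 exceeded 10 CPM in every library, whereas *Cx3cr1*, *P2ry12* and *Tmem119*, markers of homeostatic microglia, reached at most 2.47 CPM and *Sall1* was at 0 in all 15. The summed level of the 14 markers was 6855 to 8801 CPM in WT and 11620 to 12830 CPM in Trem2-/- libraries and thus moved with genotype. That sum was carried mainly by *Lyz2*, *Fcgr3*, *Cd68* and *Tyrobp*, with *Lyz2* alone at 3252 CPM on average in WT and 6318 CPM in Trem2-/- non-foamy cells. The markers did not move as one, since in the same groups *Spi1* had 93.4 and 98.3 CPM, *Itgam* 26.7 and 29.4 CPM, *Cx3cr1* 1.54 and 0.300 CPM and *P2ry12* 1.74 and 0.598 CPM. The part of these markers in the differences described here was not tested. Markers of neurons, astrocytes, lymphocytes, fibroblasts and endothelium summed to at most 0.254 CPM per list and library. In bulk RNA, fewer cells of a type and less RNA per cell cannot be told apart.

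RefSeq start windows (GRCm38.p6, 250 bases before to 50 after the start) were matched for 7 of the 10 genes, in 8 windows, with none used here for *Etv4*, *Spry4* or *Dusp4*. The stretches upstream of the start that lie outside annotated exons are shown for *Dusp6*, *Etv5* and *Spred2*, the 3 genes with such a window that differed most between the genotypes. They are written 5′ to 3′ on the gene's strand. Capitals mark the 5 bases GGAAG, which contain the core GGAA that ETS factors recognise, or the complement CTTCC. Other matches to GGAA or TTCC are left in lower case. *Dusp6* is given from chr10:99262981-99263230 (+), *Etv5* from chr16:22438369-22438618 (-), a start that lies inside the longer gene of the GENCODE annotation, and *Spred2* from chr11:19924192-19924374 (+). The other *Etv5* window, chr16:22439521-22439820 (-), covers the annotated start of that longer gene, held 0 GGAAG and is not shown.
Dusp6: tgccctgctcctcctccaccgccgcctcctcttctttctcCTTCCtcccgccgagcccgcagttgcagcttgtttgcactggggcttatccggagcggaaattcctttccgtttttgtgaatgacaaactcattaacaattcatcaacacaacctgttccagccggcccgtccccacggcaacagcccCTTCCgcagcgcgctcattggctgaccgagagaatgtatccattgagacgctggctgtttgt
Etv5: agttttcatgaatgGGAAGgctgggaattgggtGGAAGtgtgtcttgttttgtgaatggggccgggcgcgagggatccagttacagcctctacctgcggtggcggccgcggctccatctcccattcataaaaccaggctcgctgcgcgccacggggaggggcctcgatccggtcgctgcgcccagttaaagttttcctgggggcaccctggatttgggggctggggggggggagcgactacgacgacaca
Spred2: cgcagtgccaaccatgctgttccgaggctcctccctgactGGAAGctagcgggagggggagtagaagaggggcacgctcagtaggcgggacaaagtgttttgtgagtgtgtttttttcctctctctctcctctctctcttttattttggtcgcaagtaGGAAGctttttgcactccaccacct
Searched on both strands, GGAAG occurred in windows of 6 of the 7 genes, and it occurs in 71.4% of all 32851 windows of this length. Its first base, counted from the start site, lay at -210 and -62 in *Dusp6*, at -236 and -217 in the part of *Etv5* shown and at -210 and -92 in the part of *Spred2* shown. The windows of *Etv5* and *Spred2* held further matches outside the parts shown. The longer ETS sequence CCGGAAG, which contains GGAAG, was found in 0 of the 7 genes and in 8.86% of all windows. TGACGTCA, the cyclic AMP response element, was found in 0 of the 7 and 1.79% of all windows, and TGANTCA, the AP-1 sequence, in 0 of the 7 and 7.81%. These matches describe the letters of the windows and do not show that a factor was bound.

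Per kilobase of exon, *Spred1* was the most abundant of the set in all 4 groups, with 10.8 ± 1.40 CPM per kb (mean ± SD, n = 4) in WT non-foamy and 6.16 ± 0.174 (n = 3) in Trem2-/- non-foamy cells. *Dusp4* came next in each group, with 5.55 ± 0.290 CPM per kb in WT non-foamy cells. *Etv5* (4.69 ± 0.823) and *Spred2* (4.65 ± 0.493) followed in WT non-foamy cells, and the libraries of neighbours from *Dusp4* to *Spred2* overlapped. *Spry2* (2.81 ± 0.256), *Dusp5* (1.79 ± 0.231), *Dusp6* (1.44 ± 0.501) and *Etv4* (0.922 ± 0.0857) came below these and *Spry1* (0.310 ± 0.0743) was the lowest of the genes counted. The libraries of *Dusp6* overlapped those of *Dusp5* and those of *Etv4*. The order was not the same in Trem2-/- non-foamy cells. There *Etv5* had 1.20 ± 0.219 CPM per kb, with libraries of neighbours from *Spred2* through *Spry2* and *Dusp5* to *Etv5* overlapping, *Dusp6* at 0.126 ± 0.0305 was below *Spry1* at 0.314 ± 0.153, and *Etv4* was last at 0.0420 ± 0.00493.

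Without cholesterol, 7 of the 9 tested genes were past the threshold and lower in Trem2-/- than in WT cells, where 22.6% of all tested genes were (43.6% in either direction). These were *Etv4*, *Etv5*, *Spry2*, *Dusp4*, *Dusp6*, *Spred1* and *Spred2*. With cholesterol, the same 7 genes were past it and lower, where 15.9% of all tested genes were (30.2% in either direction). The median log2 fold change of the 9 genes was -0.82 without and -0.68 with cholesterol, beside 0.02 and 0.0003 over all tested genes. The set was chosen with these differences known, so nothing about the pathway is read from the counts.

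**Figure D1:**
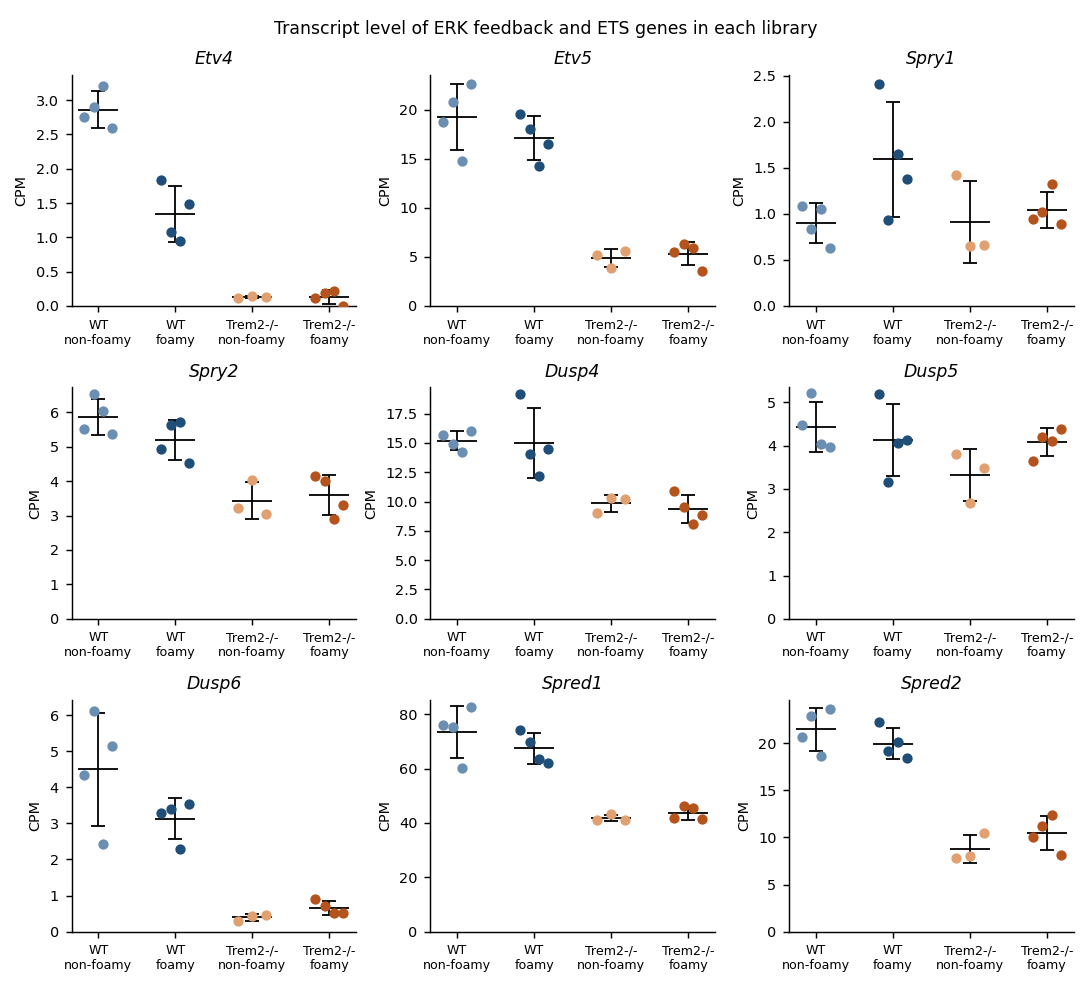
Transcript level of the 9 counted genes in each library. The y axis gives CPM from 0 on a scale of its own for each gene, points are libraries (4, 4, 3 and 4 per group), horizontal lines are group means and bars are SD; for *Etv4*, *Etv5*, *Spry2*, *Dusp4*, *Dusp6*, *Spred1* and *Spred2* every Trem2-/- library lies below every WT library of the same treatment, and *Spry1* and foamy *Dusp5* overlap.

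*Etv4* (ENSMUSG00000017724, chromosome 11, 101769742 to 101785371, minus strand, GRCm38) and *Etv5* (ENSMUSG00000013089, chromosome 16, 22381309 to 22439719, minus strand) encode ETS transcription factors of the PEA3 group. *Etv4* was counted in WT non-foamy libraries 1 to 4 at 2.75, 2.90, 3.21 and 2.59 CPM and in WT foamy libraries at 1.84, 1.08, 0.948 and 1.49 CPM. It was counted in the 3 Trem2-/- non-foamy libraries at 0.114, 0.144 and 0.132 CPM and in the 4 Trem2-/- foamy libraries at 0.111, 0.191, 0.222 and 0 CPM. All 7 Trem2-/- libraries were thus far below all 8 WT libraries, and the Trem2-/- groups did not separate from each other. The Trem2-/- values rest on 12 reads in the non-foamy and 17 in the foamy libraries, against 385 and 203 in WT. The fitted log2 fold change was -4.43 (SE 0.45, 95% interval -5.31 to -3.54) without cholesterol, a 21.5-fold lower level, and -3.29 (SE 0.41, -4.09 to -2.48) with it, 9.75-fold lower. From the lowest, these differences ranked 20 and 34 among the 14237 genes.

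*Etv5* was counted at 18.8, 20.8, 14.8 and 22.6 CPM in WT non-foamy and at 19.5, 18.02, 14.3 and 16.5 CPM in WT foamy libraries. The Trem2-/- libraries had 5.19, 3.90 and 5.63 CPM without and 5.53, 6.30, 5.89 and 3.60 CPM with cholesterol. The highest Trem2-/- library was below the lowest WT library, and within each genotype the foamy and non-foamy libraries overlapped. *Etv5* was 3.93-fold lower without cholesterol (log2 fold change -1.97, SE 0.17, 95% interval -2.32 to -1.63) and 3.20-fold lower with it (-1.68, SE 0.15, -1.98 to -1.37).

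*Spry1*, *Spry2* and *Spry4* encode Sprouty proteins, inhibitors that dampen signals from receptor tyrosine kinases to ERK. *Spry2* (ENSMUSG00000022114, chromosome 14, 105891947 to 105896819, minus strand) was counted at 5.50, 6.54, 6.03 and 5.38 CPM in WT non-foamy and 4.93, 5.62, 5.72 and 4.52 CPM in WT foamy libraries. In Trem2-/- cells it was counted at 3.22, 4.04 and 3.05 CPM without and 4.14, 4.01, 2.91 and 3.30 CPM with cholesterol. The genotypes did not overlap, although in foamy cells the nearest libraries, 4.14 and 4.52 CPM, were close. The log2 fold change was -0.77 (SE 0.16, 95% interval -1.09 to -0.45) without and -0.53 (SE 0.15, -0.82 to -0.24) with cholesterol.

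*Spry1* (ENSMUSG00000037211, chromosome 3, 37639947 to 37644598, plus strand) had 18 to 100 reads per library. Its levels were 1.09, 0.837, 1.06 and 0.625 CPM in WT non-foamy and 2.42, 0.929, 1.65 and 1.37 CPM in WT foamy libraries. In Trem2-/- libraries they were 1.42, 0.650 and 0.662 CPM without and 0.945, 1.02, 1.33 and 0.891 CPM with cholesterol. The genotypes overlapped under both treatments, with log2 fold changes of 0.05 (SE 0.37, 95% interval -0.67 to 0.77) and -0.60 (SE 0.32, -1.23 to 0.02), and the first turned to -0.09 when libraries were scaled by total counts alone. An antisense gene covers 24.4% of the *Spry1* exons, and the strand setting of the counting is not given in the sources used here, so reads of the pair cannot be told apart. *Spry4* (ENSMUSG00000024427, chromosome 18) was listed at 0 in every library, where 3 reads, the limit that a count of 0 allows, correspond to 0.0669 to 0.132 CPM. That limit covers counting error only. *Egr1* and *Ets1*, which are not in the set, were also listed at 0 in all 15 libraries. Whether such values come from the cells or from the counting was not tested.

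Among the phosphatases, *Dusp6* (ENSMUSG00000019960, chromosome 10, 99263231 to 99267489, plus strand), which encodes the cytoplasmic ERK phosphatase, differed most. It was counted at 4.33, 6.12, 2.42 and 5.13 CPM in WT non-foamy and at 3.29, 3.40, 2.29 and 3.55 CPM in WT foamy libraries. In Trem2-/- libraries it was counted at 0.285, 0.433 and 0.463 CPM without and 0.917, 0.700, 0.506 and 0.520 CPM with cholesterol. The WT non-foamy libraries spread widely, with library 3 the lowest, yet even that library was above every Trem2-/- library. *Dusp6* was 11.6-fold lower without cholesterol (log2 fold change -3.53, SE 0.33, 95% interval -4.19 to -2.88) and 4.67-fold lower with it (-2.22, SE 0.28, -2.77 to -1.68). These ranked 34 and 56 from the lowest of 14237 genes.

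*Dusp4* and *Dusp5* encode nuclear phosphatases that ERK signalling induces. *Dusp4* (ENSMUSG00000031530, chromosome 8, 34807297 to 34819894, plus strand) was counted at 15.7, 14.9, 14.2 and 16.0 CPM in WT non-foamy and 19.2, 14.0, 12.2 and 14.5 CPM in WT foamy libraries. It had 9.03, 10.3 and 10.2 CPM in Trem2-/- non-foamy and 10.9, 9.51, 8.10 and 8.87 CPM in Trem2-/- foamy libraries. The genotypes did not overlap, with log2 fold changes of -0.63 (SE 0.13, 95% interval -0.89 to -0.37) without and -0.68 (SE 0.12, -0.91 to -0.45) with cholesterol.

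*Dusp5* (ENSMUSG00000034765, chromosome 19, 53529109 to 53542431, plus strand) had 4.49, 5.22, 4.05 and 3.97 CPM in WT non-foamy and 5.19, 3.15, 4.07 and 4.12 CPM in WT foamy libraries. The Trem2-/- libraries had 3.82, 2.67 and 3.48 CPM without and 3.64, 4.20, 4.11 and 4.38 CPM with cholesterol. Without cholesterol every Trem2-/- library was below every WT library, but by a small margin, and with cholesterol the genotypes overlapped. The log2 fold change was -0.41 (SE 0.18, 95% interval -0.76 to -0.06) without cholesterol, short of the threshold, and it passed with total counts alone (-0.55). With cholesterol it was -0.02 (SE 0.16, -0.34 to 0.30). An antisense gene covers 22.1% of its exons.

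*Spred1* and *Spred2* encode membrane-bound inhibitors that bring neurofibromin to Ras. *Spred1* (ENSMUSG00000027351, chromosome 2, 117121374 to 117182279, plus strand) was the most deeply counted gene of the set, with 1112 to 3701 reads per library. It was counted at 76.2, 75.1, 60.2 and 82.6 CPM in WT non-foamy and 74.2, 69.8, 63.6 and 62.1 CPM in WT foamy libraries. The Trem2-/- libraries had 41.1, 43.2 and 41.1 CPM without and 41.9, 46.2, 45.4 and 41.3 CPM with cholesterol. All Trem2-/- libraries lay within a narrow range well below WT, at log2 fold changes of -0.82 (SE 0.09, 95% interval -0.99 to -0.64) and -0.63 (SE 0.08, -0.78 to -0.47).

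*Spred2* (ENSMUSG00000045671, chromosome 11, 19924375 to 20024026, plus strand) was counted at 20.7, 22.9, 18.6 and 23.6 CPM in WT non-foamy and 22.2, 19.1, 20.1 and 18.4 CPM in WT foamy libraries. It had 7.78, 8.08 and 10.5 CPM in Trem2-/- non-foamy and 10.04, 11.2, 12.4 and 8.17 CPM in Trem2-/- foamy libraries. The genotypes did not overlap. *Spred2* was 2.45-fold lower without cholesterol (log2 fold change -1.29, SE 0.13, 95% interval -1.55 to -1.03) and 1.91-fold lower with it (-0.93, SE 0.12, -1.17 to -0.70).

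Across these genes, every Trem2-/- library was below every WT library for 8 of 9 genes without cholesterol, where this held for 23.5% of all tested genes, and for 7 of 9 with cholesterol, where it held for 15%. The spread within groups was uneven. The coefficient of variation was 2.82% to 12.9% for *Spred1* and 18.2% to 34.8% for *Dusp6*, and for *Etv4* it ran from 9.29% in WT non-foamy to 75.5% in Trem2-/- foamy libraries, the group with a count of 0. Some libraries deviated in several genes at once. WT non-foamy library 3, the shallowest with 23538963 reads, was the lowest of its group for 5 of the 9 genes, WT foamy library 1 was the highest for 7 of 9, and Trem2-/- foamy library 4 was the lowest for 5 of 9. Leaving out any of these 3 libraries left the 7 genes past the threshold in the comparisons of the genotypes.

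**Figure D2:**
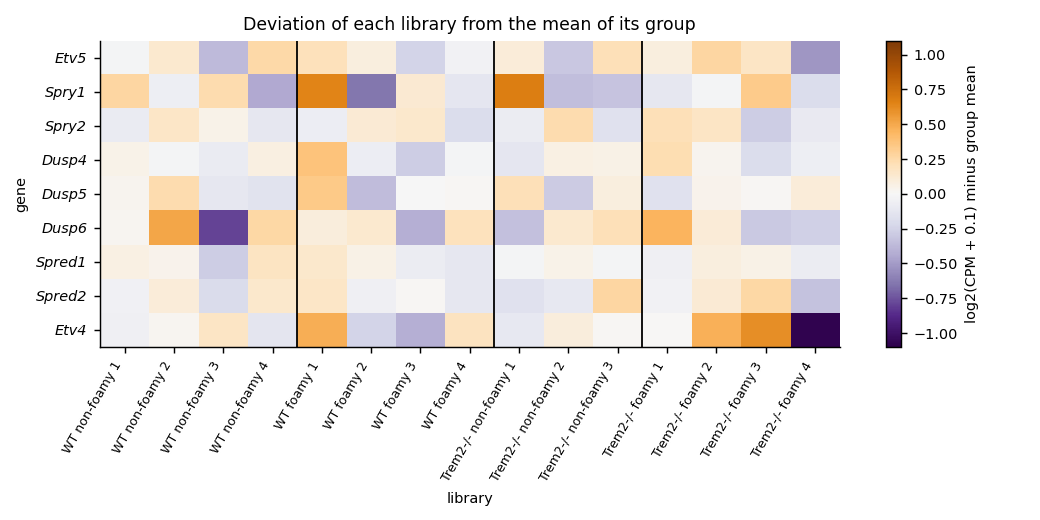
Deviation of each library from the mean of its group for the 9 genes, on the scale log2(CPM + 0.1). Rows are genes, columns are the 15 libraries in group order, and orange and purple mark values above and below the group mean; *Dusp6* in WT non-foamy library 3 and *Etv4* in Trem2-/- foamy library 4 stand out as low.

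With cholesterol, 1 of the 9 genes changed in WT cells, where 2.80% of all tested genes did (1.14% lower). This was *Etv4*, which was lower in all 4 foamy than in all 4 non-foamy libraries (a gap that 5.16% of all tested genes showed), at 1.34 ± 0.405 against 2.86 ± 0.266 CPM (n = 4 each; log2 fold change -1.09, SE 0.29, adjusted p = 0.0476, edgeR quasi-likelihood test). This call was fragile. The adjusted p ranged from 0.0441 without WT foamy library 1 to 0.168 without WT foamy library 2, it was above the threshold without any other WT library as well, and it was 0.0601 with total counts alone.

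The other 8 genes did not pass the test in WT cells, and 3 of the 9 had an unadjusted p under 0.05. *Spry1* had the highest fold change, 0.83 (SE 0.32, 95% interval 0.20 to 1.47, adjusted p = 0.183, edgeR), with overlapping libraries of 0.625 to 1.09 and 0.929 to 2.42 CPM. *Dusp6* had -0.53 (SE 0.23, -0.99 to -0.08, adjusted p = 0.246, edgeR), with overlapping libraries. The remaining 6 lay between -0.18 (*Etv5*) and -0.02 (*Dusp4*), with intervals from -0.45 to 0.22.

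In Trem2-/- cells, 0 of the 9 genes passed the edgeR test, where 0.140% of all tested genes did, 0 passed DESeq2 and 0 had an unadjusted p under 0.05. *Dusp6* was higher in all 4 foamy than in all 3 non-foamy libraries, at 0.661 ± 0.192 against 0.394 ± 0.0955 CPM (log2 fold change 0.78, SE 0.38, 95% interval 0.03 to 1.52, adjusted p = 0.782, edgeR), where 5.38% of all tested genes showed such a gap upward. The *Dusp6* interval excluded 0, although the unadjusted p was 0.055 (edgeR). *Spred2* had 0.25 (SE 0.14, -0.01 to 0.52) and *Dusp5* 0.29 (SE 0.18, -0.06 to 0.64), each with overlapping libraries. For *Etv4* the interval, -1.15 to 1.25, was too wide to show a response of the size seen in WT cells.

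The difference between the responses, that of Trem2-/- cells minus that of WT cells, passed the edgeR test for 0 of the 9 genes, where 3.64% of all tested genes passed. DESeq2 also called 0, and 1 gene had an unadjusted p under 0.05. This was *Dusp6*, at 1.31 (SE 0.45, 95% interval 0.43 to 2.18, adjusted p = 0.108, edgeR). It was called without the filter on low counts (adjusted p = 0.0381) and without WT non-foamy library 3 (1.50, adjusted p = 0.0286). *Etv4* had a difference of 1.14 (SE 0.69, -0.21 to 2.49) and *Spred2* of 0.36 (SE 0.18, 0.01 to 0.71, adjusted p = 0.304, edgeR). The *Spred2* interval excluded 0, although its unadjusted p was 0.056 (edgeR). All of these comparisons share libraries, so the lower genotype folds in foamy cells and the differences between responses are not separate observations.

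**Figure D3:**
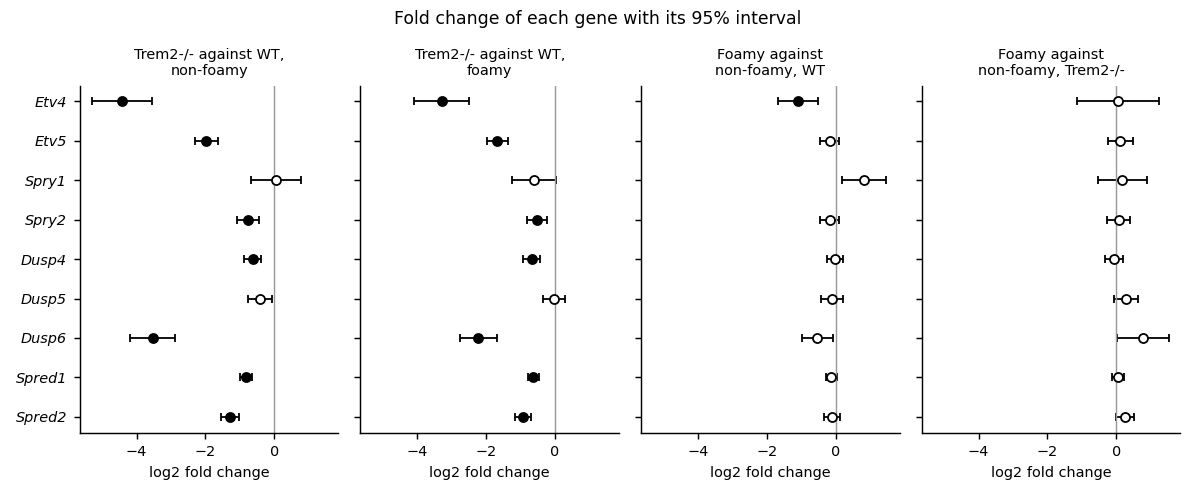
Log2 fold change of the 9 tested genes in 4 comparisons, with bars for the approximate 95% interval (1.96 SE). Filled points had an adjusted p under 0.05 over 14237 genes; in both comparisons of genotypes *Etv4*, *Dusp6* and *Etv5* lie farthest to the left, and in the cholesterol responses *Etv4* in WT cells is the only filled point.

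Other genes of the pathway were examined as 6 lists of 109 genes in all, written from general knowledge but with earlier results of these data known. The genes named from them are mostly those with the greatest differences, so their adjusted p-values, over all 14237 genes, describe these genes and are no independent evidence about a list. Of all tested genes, 21.0% were higher and 22.6% lower in Trem2-/- cells without cholesterol, and 14.3% and 15.9% with it. The ERK cascade itself moved in both directions. Of 23 tested components, 9 were higher and 4 lower in Trem2-/- non-foamy cells, and 6 were higher and 5 lower in Trem2-/- foamy cells, with median log2 fold changes of 0.06 and 0.03, where 43.6% and 30.2% of all tested genes passed in either direction. *Grb2*, the adaptor that links receptors to Ras activation, rose from 144 ± 6.04 to 267 ± 12.6 CPM without cholesterol (log2 fold change 0.89, SE 0.07, adjusted p = 4.43e-10, edgeR). It was also higher with cholesterol (0.49, SE 0.06, adjusted p = 2.54e-06, edgeR). *Hras*, a Ras GTPase, fell by 0.73 and 0.42 on the log2 scale (adjusted p = 7.19e-07 and 0.000462, edgeR). *Rps6ka2*, a kinase activated by ERK, had -0.44 (adjusted p = 0.163) without cholesterol and fell by 1.18 with it (adjusted p = 0.000540, edgeR).

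Of 8 other dual-specificity phosphatases tested, 1 was higher and 4 were lower without cholesterol, and 4 were lower with it, with medians of -0.35 and -0.43, beside 22.6% and 15.9% of all tested genes that were lower. *Dusp14* fell most, from 4.60 ± 0.519 to 1.75 ± 0.261 CPM without cholesterol (log2 fold change -1.40, SE 0.20, adjusted p = 4.02e-06, edgeR) and by 1.37 with it (adjusted p = 3.85e-06, edgeR). *Dusp1*, a nuclear phosphatase that acts mainly on the stress kinases p38 and JNK, had -0.26 (adjusted p = 0.201) without and -0.83 (adjusted p = 0.000151, edgeR) with cholesterol. *Dusp2* passed without cholesterol (-0.49, adjusted p = 0.00201, edgeR) and not with it (-0.28, adjusted p = 0.0552). *Dusp7*, the cytoplasmic relative of *Dusp6*, passed with cholesterol (-0.46, adjusted p = 0.000970, edgeR) and not without it (-0.24, adjusted p = 0.0686).

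Of 12 other inhibitors of Ras and ERK tested, 2 were higher and 4 lower without cholesterol, and 1 was higher and 4 lower with it, with medians of -0.06 and -0.21, beside 43.6% and 30.2% of all tested genes past the threshold in either direction. The 3 that fell most encode proteins that switch Ras off. *Rasal3* fell by 1.62 under either treatment (adjusted p = 7.08e-07 and 5.55e-07, edgeR), with an antisense gene over 13.0% of its exons. *Rasa2* fell by 0.94 and 0.71 (adjusted p = 4.12e-07 and 1.19e-05, edgeR). *Dab2ip* fell by 0.88 and 0.74 (adjusted p = 1.63e-05 and 8.66e-05, edgeR), with an antisense gene over 4.15% of its exons. *Cblb*, a ubiquitin ligase that marks activated receptors and kinases, rose by 1.02 and 0.76 (adjusted p = 2.00e-05 and 0.000499, edgeR).

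Of 14 other ETS factors tested, 1 was higher and 5 lower without cholesterol and 6 were lower with it, with medians of -0.10 and -0.13, beside 22.6% and 15.9% of all tested genes that were lower. *Etv1*, the third gene of the PEA3 group, fell from 14.5 ± 0.691 to 6.40 ± 0.989 CPM without cholesterol (log2 fold change -1.18, SE 0.12, adjusted p = 3.96e-08, edgeR) and by 0.82 with it (adjusted p = 4.70e-06, edgeR). *Ets2* fell by 0.73 and 0.60 (adjusted p = 0.00576 and 0.0171, edgeR), the second with overlapping libraries. *Erf*, a repressor that ERK removes from the nucleus, fell by 0.67 and 0.52 (adjusted p = 0.000254 and 0.00212, edgeR). *Fli1* fell by 0.43 without cholesterol (adjusted p = 0.000256, edgeR) and had -0.16 with it (adjusted p = 0.119). *Ets1* was among the 9 listed ETS factors that were not tested and was listed at 0.

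Of 9 other ERK output genes tested, 2 were higher and 4 lower under either treatment, with medians of -0.10 and 0.03, beside 43.6% and 30.2% of all tested genes in either direction. *Ccnd1*, cyclin D1, fell from 46.3 ± 5.67 to 13.4 ± 1.77 CPM without cholesterol (log2 fold change -1.79, SE 0.12, adjusted p = 1.16e-10, edgeR) and by 1.17 with it (adjusted p = 3.31e-08, edgeR), with an antisense gene over 23.4% of its exons. *Fos*, an immediate early factor, fell by 1.76 and 1.22 (adjusted p = 9.77e-05 and 0.00150, edgeR). *Hbegf*, a ligand of the EGF receptor, fell by 1.32 and 1.04 (adjusted p = 2.70e-06 and 3.51e-05, edgeR). *Egr2*, another immediate early factor, went the other way without cholesterol, from 0.779 ± 0.315 to 1.65 ± 0.422 CPM (log2 fold change 1.05, adjusted p = 0.0104, edgeR), and had 0.03 with it (adjusted p = 0.954). *Egr1* was among the 9 listed output genes that were not tested and was listed at 0 in all 15 libraries.

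Of 14 receptors, ligands and proximal signalling genes tested upstream of ERK, 6 were higher and none was lower without cholesterol, where 21.0% of all tested genes were higher. With cholesterol 4 were higher and 1 lower, where 14.3% and 15.9% of all tested genes were, and the medians were 0.41 and 0.14. *Mertk*, a receptor tyrosine kinase for clearance of dying cells, rose from 29.3 ± 2.82 to 69.1 ± 2.07 CPM without cholesterol (log2 fold change 1.23, SE 0.09, adjusted p = 2.02e-10, edgeR) and by 0.50 with it (adjusted p = 5.84e-05, edgeR). *Csf1r*, the CSF1 receptor, rose by 0.61 and 0.31 (adjusted p = 8.86e-06 and 0.00691, edgeR), the second with overlapping libraries and with an antisense gene over 15.1% of its exons. *Csf2rb*, the shared chain of the GM-CSF receptor, which has a near-identical neighbour, rose by 0.59 without cholesterol (adjusted p = 5.71e-06, edgeR) and had 0.04 with it (adjusted p = 0.720). *Axl*, a relative of *Mertk*, passed as lower with cholesterol alone (-2.44, adjusted p = 0.0311, edgeR), at 0.0595 ± 0.0456 against 0.352 ± 0.205 CPM, and its level was close to that of a few reads.

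**Figure D4:**
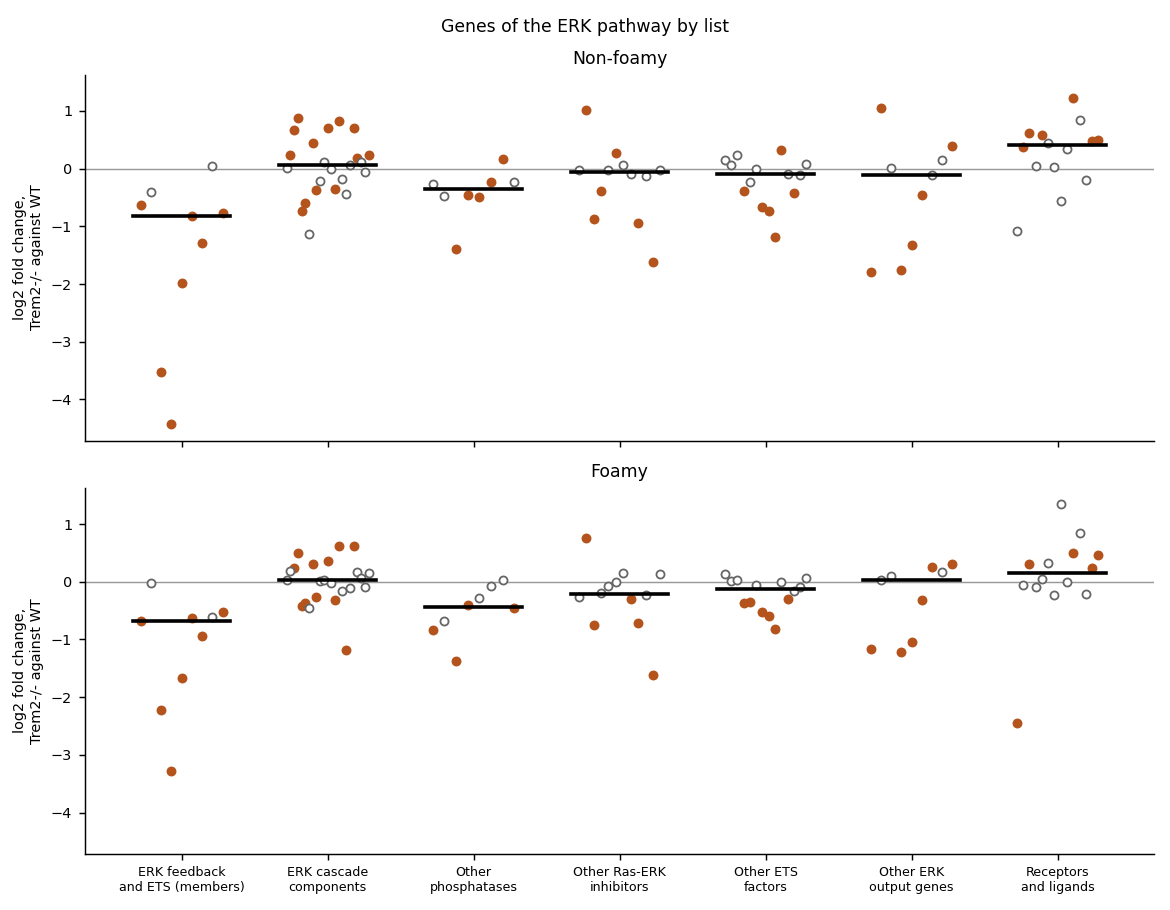
Log2 fold change of Trem2-/- against WT for the tested genes of the ERK feedback and ETS set and of the 6 other lists, without cholesterol (top) and with it (bottom). Each point is a gene, filled points had an adjusted p under 0.05 over all tested genes, and black lines are list medians; the set lies lowest, with medians of -0.82 and -0.68, and it was chosen with these differences known.

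The cholesterol response of these lists is given beside the 2.80% of all tested genes called in WT and the 0.140% called in Trem2-/- cells. In WT cells, *Ier3* and *Emp1* of the ERK output genes fell by 0.29 and 0.22 (adjusted p = 0.00934 and 0.0294, edgeR), and *Mertk* and *Csf2rb* of the receptors rose by 0.57 and 0.40 (adjusted p = 0.000279 and 0.00565, edgeR). *Emp1* lost its call with the replicate block, without a filter, with only the groups compared, and without any of 5 of the 8 WT libraries in turn (non-foamy 1 and 2, foamy 1, 2 and 4), with an adjusted p of up to 0.106 in edgeR. *Ier3* lost it with only the groups compared and without WT foamy library 2 (adjusted p = 0.0516, edgeR). *Mertk* and *Csf2rb* kept their calls in all of these. The edgeR test called 0 of 23 cascade components, of which 6 had an unadjusted p under 0.05 and DESeq2 called 3. It called 0 of 8 phosphatases, 0 of 12 inhibitors and 0 of 14 ETS factors, of which 2, 1 and 1 had an unadjusted p under 0.05 and DESeq2 called 0. In Trem2-/- cells edgeR and DESeq2 called 0 genes of any of the 6 lists, and between 0 and 2 genes per list had an unadjusted p under 0.05.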

How the data were processed

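RNA was sequenced from 15 libraries of BV2 cells. The deposited tables hold raw read counts per gene, which the authors made with the CHURP pipeline: Trimmomatic, HISAT2 alignment to GRCm38 and featureCounts. Strand setting, treatment of reads with several matches and whether mates were counted singly are not given in the sources used here; of 64319 values from 1 to 12, 82.7% were even. The members and all gene lists were chosen with earlier results of these data known.

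Counts were scaled with TMM factors (0.918 to 1.11) and filtered with filterByExpr at a minimum count of 10, which left 14237 genes holding 99.97% of the counts. The 15 libraries were fitted with 1 mean per group and tested with the quasi-likelihood F-test of edgeR 4.0.16 in R 4.3.3. P-values were adjusted over all tested genes (Benjamini-Hochberg) and a gene was called under 0.05. The biological coefficient of variation was 10.2%. SE is the absolute log2 fold change divided by the square root of F, and intervals are 1.96 SE on each side. The factor 1.96 is the normal value, so the 95% intervals are approximate and narrower than the F-test implies. They can exclude 0 where the unadjusted p is above 0.05, as for *Dusp6* in the Trem2-/- response and *Spred2* in the difference between responses. Depths were 23538963 to 41683825 reads, and limits for a count of 0 are 3 reads and cover counting error only. Replicates differed by more than counting noise (chi-square per gene 5.95 to 45.2 over 21 pairs).

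The genes named were the 10 members, *Trem2*, up to 4 called genes per list with the greatest genotype differences, and listed genes called in a cholesterol response. A gene that this rule names and a marker result are not reported here. *Ets1* and *Egr1* were named after their values were seen. Alternatives were RLE factors, total counts alone, DESeq2 1.42.0, no filter, at least 10 reads in every library, only the groups compared, a block for the replicate number, leaving out each library, and, added after the data were seen, counts halved and rounded down. Exons came from a GENCODE annotation of GRCm38 and start windows from RefSeq. The procedure was run on simulated data with differences planted between genotypes alone, outside the genes of lowest level. That run cannot show how well a cholesterol response, a difference between responses or a change in a rare transcript is found.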

Additional observations from a re-analysis of the deposited data

Results flagged for a closer look

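Chance flags about 1 in 20 groups by the rule used for libraries that stand apart from their group. The rule was run on groups of 4 libraries only, so the 3 Trem2-/- non-foamy libraries were not examined by it. In those, *Spry1* had 1.42 CPM in library 1 against 0.650 and 0.662 CPM in libraries 2 and 3. Of the 105 groups examined, 5 were flagged, none of them in the ERK feedback and ETS set. *Dusp14* was lowest in 1 WT non-foamy library at 3.83 CPM (others 4.77 to 4.95), *Fli1* in 1 at 29.1 CPM (32.2 to 32.4) and *Mertk* in 1 at 25.2 CPM (30.4 to 31.4). In Trem2-/- foamy cells, *Etv1* was highest in 1 library at 7.94 CPM (others 6.39 to 6.50) and *Fos* in 1 at 2.22 CPM (0.945 to 1.11).

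The cholesterol response differed between the genotypes, by the test of the difference itself, for 7 genes of the pathway lists, where 3.64% of all tested genes passed. These were 3 of 23 tested cascade components, 2 of 9 output genes and 2 of 14 receptors and ligands. In the other lists, 0 of 8 phosphatases, 0 of 12 inhibitors and 0 of 14 ETS factors passed. Trem2-/- minus WT, on the log2 scale, was -0.73 for *Mertk* (adjusted p = 0.000990, edgeR), -0.54 for *Csf2rb* (0.0103), -0.39 for *Grb2* (0.0190), -0.44 for *Gab2*, an adaptor (0.0372), -0.35 for *Mapk3*, which encodes ERK1 (0.0309), 0.62 for *Ccnd1* (0.0319) and 0.36 for *Ier3* (0.0254). When each of the 15 libraries was left out in turn, *Mertk* and *Csf2rb* kept their calls throughout, *Grb2* lost its call in 3 cases, *Ier3* and *Mapk3* in 6 and *Ccnd1* and *Gab2* in 9, with adjusted p-values of up to 0.122 (edgeR). Without Trem2-/- non-foamy library 1 or 2, these 5 genes all lost their calls. *Ccnd1*, *Gab2* and *Mapk3* also lost them with total counts alone and with the replicate block, and *Csf2rb* with total counts alone.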

How the results depend on the processing

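Of 750 values of the 9 genes under the alternatives, 717 kept their direction and their side of the threshold, 21 turned, 9 lost and 3 gained a call; the cause was not tested. The 7 genes lower in Trem2-/- cells numbered 6 to 8 without and 6 to 7 with cholesterol, with 6 where 10 reads were required in every library, since *Etv4* then left the test. Total counts alone moved the median of all genes by -0.142 and -0.130 in the genotype comparisons, the share of calls that were higher from 48.1% to 29.4% and from 47.4% to 23.3%, that of the WT response from 59.4% to 41.8% and that of the difference between responses from 54.8% to 70.3%. *Spry1* without cholesterol turned from 0.05 to -0.093 with total counts alone and -0.088 with the replicate block, and *Etv4* in the Trem2-/- response from 0.053 to -0.025 with halved counts.

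Genes called in the WT response numbered 399, and 815 with DESeq2, 607 without a filter and 144 with only the groups compared. In the Trem2-/- response they numbered 20, and 54 with DESeq2 and 61 without a filter, and in the difference between responses 518, and 916 with DESeq2. Of the 9 genes, 1 passed in the WT response and 0 with total counts alone, with 10 reads in every library or with the block, and in the difference between responses 0 passed, and 1 without a filter. Cascade components called in the WT response went from 0 to 3 with DESeq2 and 2 without a filter, with 10 reads in every library or with halved counts. Output genes there went from 2 to 0 with only the groups compared. With total counts alone, the cascade, output and receptor genes whose responses differed went from 3, 2 and 2 to 1 each. Phosphatases called between genotypes without cholesterol went from 5 to 3 without a filter. Genes with the ETS letters went from 0 to 6 when GGAAG replaced CCGGAAG.

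Same-numbered libraries of different groups did not deviate together (r from -0.0885 to 0.118, 1 of 21 above 0.1), so the numbers were not taken as pairs. With the replicate number as a block, 294 genes passed for the difference between responses, *Etv4* in WT lost its call (adjusted p = 0.0802, edgeR), and output genes in the WT response and cascade and output genes in the difference went to 1 each.

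Leaving out 1 library at a time gave 146 (without WT foamy library 2) to 526 genes for the WT response, 10 (without Trem2-/- non-foamy library 1) to 18 for the Trem2-/- response and 201 (without Trem2-/- non-foamy library 1) to 661 for the difference. Of the 9 genes, 0 to 1 passed in the WT response and 0 to 1 in the difference. List counts ran from 0 to 2 (cascade) and 0 to 3 (output) in the WT response, 0 to 3 and 0 to 2 in the difference, 3 to 5 for receptors with cholesterol and 3 to 5 for phosphatases without it. Fold changes that turned ran from -0.44 to 0.24 for *Spry1* and, with cholesterol, -0.13 to 0.11 for *Dusp5* between genotypes. In the WT response they ran from -0.16 to 0.056 for *Dusp4* and -0.23 to 0.012 for *Dusp5*. In the Trem2-/- response they ran from -0.29 to 0.41 for *Etv4*, -0.013 to 0.26 for *Etv5*, -0.0078 to 0.67 for *Spry1* and -0.0075 to 0.20 for *Spry2*, and in the difference from -0.14 to 0.093 for *Dusp4*. Depth limits *Etv4* in Trem2-/- cells, at 0 to 7 reads per library.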
